A study of Mus musculus with 5 samples.

Results

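Ifitm3 was read at under 1 CPM (UMIs per 1000000 UMIs of the library) in all 3 libraries of small intestinal organoids with edited Lkb1, against 243 CPM in the wild-type small intestinal library, while its relative and neighbour Ifitm2 was abundant in every library. The genes described are 8 interferon-induced genes, Ifitm1, Ifitm2, Ifitm3, Irf1, Irf7, Isg15, Bst2 and B2m, of 18323 genes with a UMI in any library. UMIs, unique molecular identifiers, mark single captured molecules. The genes were chosen by name with the levels in these libraries already known, Ifitm3 for its low level in the libraries with edited Lkb1, so their levels and ratios are descriptions and carry no test. All 8 had UMIs in every library.

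The study profiled single cells of mouse gut organoids, which are cultured pieces of self-renewing gut lining, to compare organoids with edited Lkb1 with unedited ones. Stk11 is the gene name of Lkb1, a tumour suppressor kinase upstream of AMPK. The Cys and Bud libraries were both of genotype Lkb1 -/-, and their titles carry these marks without saying what they mean. The het library was of genotype Lkb1 +/-. The fetal library came from fetal intestinal organoids of genotype WT, and the WT library from small intestinal organoids of genotype WT. All were grown in medium with Egf, R-spondin1 and Noggin (per the labels). The labels name no strain, sex, age, clone number or editing site, so a difference between libraries cannot be told apart from a difference between the animals or clones behind them. Each group was 1 plate of 384 sorted wells, with no replicate, and every interval in brackets is a 95% counting interval.

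Wells with at least 1000 UMIs were kept: 359 in Cys, 318 in Bud, 351 in het, 371 in fetal and 302 in WT, with 5865507 (fetal) down to 4035219 (WT) UMIs a library. The median well held 10414 (Cys) to 14637 (fetal) UMIs. The plates used the same 384 well barcodes by design. Wells with over 2% of their UMIs from Kcnq1ot1, taken here as a sign of damage, made up 0.539% of fetal wells and 6.13% (Cys) to 17.1% (het) of the others. Stk11 was at 9.03 CPM in Cys, 11.7 in Bud, 14.1 in het, 16.0 in fetal and 20.6 in WT, but a tag from the 3' end does not check an edit elsewhere in the gene. The 7 epithelial markers, such as Epcam and Krt8, summed to 6517 (Cys) down to 5129 (WT) CPM. Markers of immune cells summed to 9.33 (het) to 28.6 (fetal) CPM, with Ptprc at 0 in 4 of 5 libraries, and those of mesenchymal and endothelial cells stayed under 4 CPM everywhere.

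The Ifitm genes encode small membrane proteins that hinder the entry of enveloped viruses and are switched on by interferons. In mouse intestine they are also known to respond to WNT signalling, which keeps the stem cells of the crypt. Irf1 and Irf7 are transcription factors of the interferon response, Isg15 is a ubiquitin-like modifier, Bst2 (tetherin) holds budding viruses on the cell surface, and B2m is the light chain of MHC class I. Interferon signals reach such genes through 2 kinds of promoter element: the ISRE, the element of the response to type I interferons, and the GAS element, that of the response to interferon gamma.

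The upstream sequences of the Ifitm genes are shown because these genes lie side by side on chromosome 7 and yet were read at such different levels. They are the 250 bases before the RefSeq start on GRCm38.p6, 5′ to 3′ on the gene's own strand, in lower case with matches to the ISRE core, GAAA and again GAAA after any 2 bases (both strands searched), in capitals. Ifitm3 lies at chr7:141010745-141010994 on the minus strand, Ifitm2 at chr7:140955962-140956211 on the minus strand and Ifitm1 at chr7:140967826-140968075 on the plus strand, inside the span of its GENCODE gene, which has an earlier start. The GENCODE genes of Ifitm3 and Ifitm2 reach to 141010770 and 140955987, so they also cover the last bases of their windows.
Ifitm3: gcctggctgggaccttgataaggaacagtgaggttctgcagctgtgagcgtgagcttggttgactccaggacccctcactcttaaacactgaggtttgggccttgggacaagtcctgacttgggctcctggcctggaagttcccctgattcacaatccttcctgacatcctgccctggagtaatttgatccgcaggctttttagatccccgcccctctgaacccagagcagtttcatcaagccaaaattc
Ifitm2: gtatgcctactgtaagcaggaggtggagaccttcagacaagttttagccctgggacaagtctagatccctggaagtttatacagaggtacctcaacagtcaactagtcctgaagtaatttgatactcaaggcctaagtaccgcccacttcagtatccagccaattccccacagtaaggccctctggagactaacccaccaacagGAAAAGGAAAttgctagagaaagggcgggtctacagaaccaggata
Ifitm1: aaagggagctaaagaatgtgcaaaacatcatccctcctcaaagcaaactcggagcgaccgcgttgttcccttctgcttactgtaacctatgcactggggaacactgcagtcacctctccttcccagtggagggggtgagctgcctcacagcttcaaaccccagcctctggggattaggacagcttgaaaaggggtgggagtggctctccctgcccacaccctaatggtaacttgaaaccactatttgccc

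Ifitm2 held 1 ISRE core, starting 46 bases before its start, whereas Ifitm3 and Ifitm1 held none in these windows. When the first 50 transcribed bases were added, a window chosen after the data were seen, Ifitm3 held 2 cores, starting 2 and 19 bases after its start. The first of them and the core of Ifitm2 were written with the same 10 letters. In 30-base windows (capitals: the core) they are shown with cores of Isg15, Bst2 and B2m, and with the GAS element TTCNNNGAA of Irf1 in capitals on the last line. These windows lie at chr7:141010723-141010752 and chr7:141010706-141010735 (Ifitm3, minus strand), chr4:156200871-156200900 (Isg15, minus), chr8:71537577-71537606 (Bst2, minus), chr2:122147538-122147567 (B2m, plus) and chr11:53769914-53769943 (Irf1, plus).
Ifitm3, first core: caaaattcagGAAAAGGAAActtctgagaa
Ifitm3, second core: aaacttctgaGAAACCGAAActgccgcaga
Isg15: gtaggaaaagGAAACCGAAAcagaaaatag
Bst2: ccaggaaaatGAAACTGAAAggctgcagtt
B2m: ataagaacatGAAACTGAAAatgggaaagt
Irf1: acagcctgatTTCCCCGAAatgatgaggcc

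In the 250-base window 4 of the 8 genes held an ISRE core (B2m, Bst2, Ifitm2 and Isg15), against 3.46% of all 27025 genes with a RefSeq promoter. With the 50 transcribed bases Ifitm3 joined them, making 5 of 8 against 3.99%. Cores of Isg15 and Bst2 overlap further cores, 3 in all in Isg15 and 2 in Bst2. The GAS element was found in 2 of 8 genes, Irf1 and Bst2, against 8.13% of genes, and its match in Bst2 overlaps the first ISRE core by 3 bases. With the transcribed bases Ifitm3 was again added, making 3 of 8 against 9.55%. A match describes these letters only and says nothing of binding.

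Ifitm3 (chr7:141009586-141010770, minus strand) was the most uneven of the 8 genes. It had 4 UMIs in the Cys library, 3 in Bud, 3 in het, 6018 in fetal and 980 in WT, that is 0.803, 0.714, 0.683, 1026 and 243 CPM. The fetal library was highest and WT second, and the Cys, Bud and het libraries lay together near 0 with intervals that include one another. Against WT, Ifitm3 was 302-fold lower in Cys (118 to 1112), 340-fold lower in Bud (116 to 1651) and 356-fold lower in het (121 to 1728). In fetal it was 4.22-fold higher than in WT (3.95 to 4.52).

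The few Ifitm3 molecules differed in how often they were read. In Cys and het every UMI came from a single read (4 reads for 4 UMIs and 3 reads for 3 UMIs), and in Bud 11 reads gave 3 UMIs in 2 wells. Where the gene was abundant, each UMI had 1.84 reads in fetal and 1.81 in WT. A floor of 3 UMIs stands for 0.602 CPM in Cys, 0.714 in Bud and 0.683 in het, so these counts lie at or just above that floor.

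**Figure D1:**
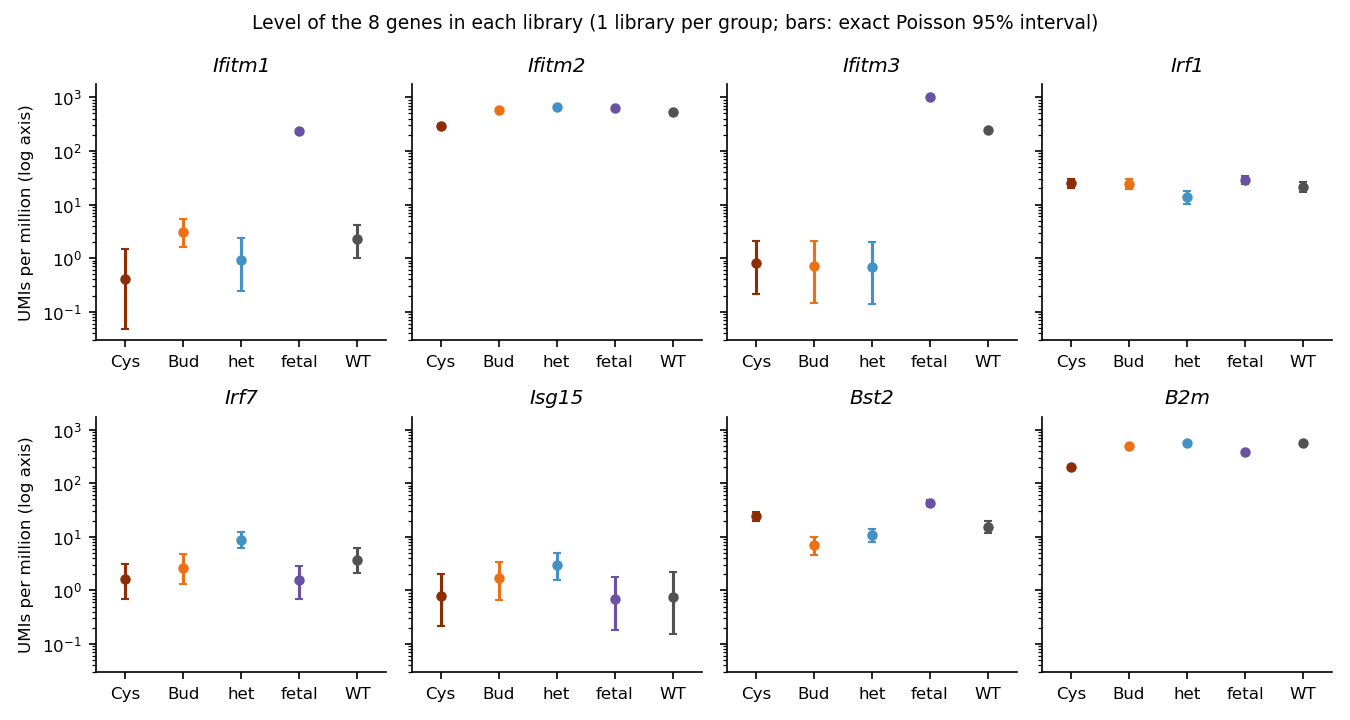
Level of each of the 8 genes in CPM (log axis) by library, as points with exact Poisson 95% intervals. Ifitm3 drops to under 1 in Cys, Bud and het, Ifitm1 stands at 230.7 in fetal and at most 3.10 elsewhere, and Ifitm2 and B2m lie between 197 and 659 with Cys lowest.

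Where it was present, Ifitm3 was spread over many cells. It had a UMI in 4 of 359 Cys wells, 2 of 318 Bud wells, 3 of 351 het wells, 355 of 371 fetal wells and 204 of 302 WT wells. Because deeper wells show more genes, each well was also thinned to 1000 UMIs. Then 0.557% of Cys wells (0.0675 to 1.998), 0 of 318 Bud wells, which allows a share of up to 0.943% at 3 wells, and 0.285% of het wells (0.00721 to 1.58) had Ifitm3, against 55.0% of fetal wells (49.8 to 60.1) and 20.2% of WT wells (15.8 to 25.2). The best well held 86 Ifitm3 UMIs in fetal and 22 in WT, but at most 2 in the other libraries.

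Ifitm2 (chr7:140954837-140955987, minus strand), at -53.6 kb from Ifitm3 along the chromosome, did not share this loss. It was at 297 CPM in Cys, 591 in Bud, 659 in het, 637 in fetal and 537 in WT. Cys was lowest, and the Bud, het and fetal levels lay above that of WT. Ifitm2 was 1.81-fold lower in Cys than in WT (1.69 to 1.93) and 1.99-fold lower in Cys than in Bud (1.87 to 2.13). The ratio to WT was 1.10 in Bud (1.04 to 1.17), 1.23 in het (1.16 to 1.30) and 1.19 in fetal (1.12 to 1.25), all short of 1.5. In order of level, het and fetal did not differ beyond counting error, and Bud, WT and Cys followed with intervals that exclude 1 at each step.

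The share of thinned wells with Ifitm2 was 25.3% in Cys (20.9 to 30.2), 38.4% in Bud, 39.6% in het, 41.2% in fetal and 41.1% in WT (35.5 to 46.8). The Bud, het, fetal and WT shares overlap, and the Cys share lies below them. In Cys 10.0% of the Ifitm2 UMIs came from 1 well of very high depth.

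Ifitm1 (chr7:140967221-140969825, plus strand), between Ifitm2 and Ifitm3, was abundant in the fetal library alone. It had 2 UMIs in Cys, 13 in Bud, 4 in het, 1353 in fetal and 9 in WT. The fetal level of 230.7 CPM was 103-fold that of WT (54.3 to 227) and 74.5-fold that of Bud, the next in order. The order of Bud, WT, het and Cys did not hold beyond counting error from one neighbour to the next. Ifitm1 had a UMI in 196 of 371 fetal wells and 8 of 302 WT wells. After thinning these were 16.4% of fetal wells (12.8 to 20.6) and 0.662% of WT wells (0.0803 to 2.37). Within the fetal library it was more uneven than Ifitm3: the tenth of wells with most Ifitm1 held 64.2% of its UMIs, against 33.9% for Ifitm3.

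**Figure D2:**
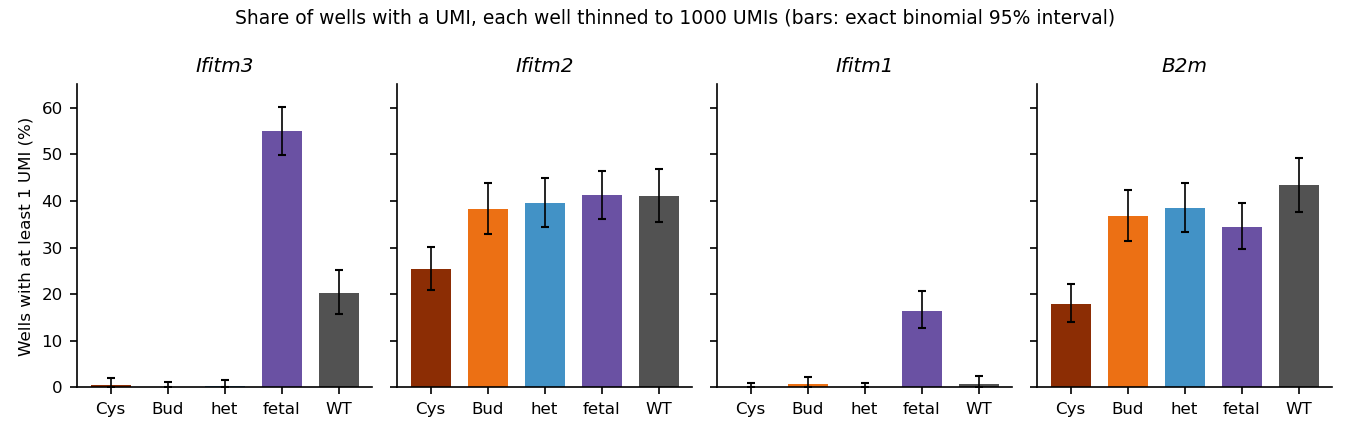
Share of wells with at least 1 UMI of Ifitm3, Ifitm2, Ifitm1 and B2m by library after thinning each well to 1000 UMIs, as bars from 0 with exact binomial 95% intervals. Ifitm3 is seen in 55.0% of fetal and 20.2% of WT wells and almost nowhere else, whereas Ifitm2 and B2m are seen in every library with Cys lowest.

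The remaining Ifitm genes gave little signal. Ifitm5, known from bone, reached 6.37 CPM in het and 1.81 CPM in Cys. Ifitm6 reached 2.22 CPM in fetal and had no UMI in Cys. Ifitm7 stayed at 0.511 (fetal) to 1.14 (het) CPM, and Ifitm10 had 1 UMI, in het. Reads could in principle be shared between family members, since the sources used here do not say how reads with several matches were handled. When the last 300 transcript bases of Ifitm3 and Ifitm2 were aligned, 197 of 344 columns were identical, or 57.3% with gaps counted. The longest stretch they share exactly was 69 bases, and 10 of the 619 stretches of 60 bases in Ifitm3 occur in Ifitm2.

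Irf1, Irf7, Bst2 and B2m did not follow Ifitm3, though Irf7, with 15 UMIs in WT, could have shown only a large loss. Isg15 had 3 UMIs in WT, too few to show a loss. Irf1 (chr11:53770014-53778374, plus strand) was at 24.9 CPM in Cys, 24.3 in Bud, 13.7 in het, 28.8 in fetal and 21.3 in WT. The het level was lowest, 1.56-fold lower than in WT (1.11 to 2.21), and that was no longer called with wells of at least 3000 UMIs or with scaling by the median ratio over genes. Irf1 was found in 13.1% of het wells and in 20.3% (Cys) to 28.8% (fetal) of the wells of the other libraries before thinning.

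Irf7 (chr7:141262706-141266481, minus strand), 252 kb from Ifitm3, had 8 UMIs in Cys, 11 in Bud, 39 in het, 9 in fetal and 15 in WT. The het library was highest, 2.39-fold above WT (1.29 to 4.66), and the others were within counting error of their neighbours in order. Irf7 overlaps Phrf1 on the other strand by 45 bases, and whether counting used strand is not stated. Isg15 (chr4:156199424-156200818, minus strand) had 4, 7, 13, 4 and 3 UMIs in Cys, Bud, het, fetal and WT. Its het level was 3.98-fold that of WT, with an interval of 1.09 to 21.8 that nearly reaches 1. Neither het call held when each well was given equal weight, and that of Isg15 was also lost without the wells rich in Kcnq1ot1.

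Bst2 (chr8:71534255-71537456, minus strand) was at 24.1 CPM in Cys, 6.91 in Bud, 10.7 in het, 42.5 in fetal and 15.1 in WT. It was 2.81-fold higher in fetal than in WT (2.11 to 3.78), 1.59-fold higher in Cys than in WT (1.16 to 2.21) and 2.19-fold lower in Bud than in WT (1.39 to 3.53). The Cys difference was not called on read counts. Bst2 thus stood on opposite sides of WT in the 2 libraries of genotype Lkb1 -/-, and Cys was higher than Bud. Before thinning, 23.1% of Cys wells, 8.49% of Bud wells and 16.6% of WT wells held a Bst2 UMI.

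B2m (chr2:122147686-122153083, plus strand) was at 197 CPM in Cys, 487 in Bud, 552 in het, 384.96 in fetal and 571 in WT. It was 2.89-fold lower in Cys than in WT (2.68 to 3.12). In fetal it was 1.48-fold lower than in WT (1.40 to 1.57), just short of the 1.5 that a call requires, and it was called lower when the 50 most abundant genes were left out of the total. After thinning, B2m was seen in 17.8% of Cys wells (14.0 to 22.2), 36.8% of Bud, 38.5% of het, 34.5% of fetal and 43.4% of WT wells (37.7 to 49.2). All of B2m overlaps Patl2 on the other strand, and whether counting used strand is not stated.

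A call, higher or lower, needed a CPM ratio of 1.5 or more in that direction, an interval excluding 1 and 10 or more UMIs over both libraries. Against WT, Cys had 1 gene of 7 called higher (Bst2) and 4 called lower (Ifitm1, Ifitm2, Ifitm3 and B2m), where 17.6% of all genes were called higher and 22% lower. The Ifitm1 call rests on 2 UMIs in Cys and 9 in WT, and was lost with wells of at least 3000 UMIs. Bud had 0 of 8 higher and 2 lower (Ifitm3 and Bst2), where 5.79% of genes were higher and 8.67% lower. het had 2 of 8 higher (Irf7 and Isg15) and 2 lower (Ifitm3 and Irf1), where 8.43% were higher and 8.83% lower. fetal had 3 of 7 higher (Ifitm1, Ifitm3 and Bst2) and 0 lower, where 29.4% were higher and 22.3% lower. These comparisons share the WT library, and since the genes were chosen with their levels known the counts are not read against these shares.

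Bud against het and Cys against Bud compare libraries with Ifitm3 near 0 in both. Bud over het had 2 of 7 genes called higher (Ifitm1 and Irf1) and 1 lower (Irf7), where 8.94% of all genes were higher and 11.7% lower. Irf7 was 3.39-fold lower in Bud than in het (1.70 to 7.33), and Irf1 was 1.78-fold higher (1.28 to 2.49). The Ifitm1 call rests on 13 UMIs in Bud and 4 in het and was lost without its best well. Cys over Bud had 1 of 7 higher (Bst2) and 3 lower (Ifitm1, Ifitm2 and B2m), where 19.2% were higher and 19.5% lower. Bst2 was 3.49-fold higher in Cys than in Bud (2.31 to 5.43) and B2m 2.47-fold lower (2.29 to 2.67).

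The libraries also differed in the kinds of cell they held. The 8 stem cell genes summed to 820 CPM in Cys, 2275 in Bud, 1797 in het, 1083 in fetal and 2168 in WT. A large part of the sum came from Cd44 and Slc12a2 in every library, larger in Cys and fetal than in the others. Cd44 and Slc12a2 were at 435 and 325 CPM in Cys, 353 and 851 in Bud and 133 and 725 in het. They were at 537 and 393 CPM in fetal and 154 and 1012 in WT. Lgr5 was at 13.0 CPM in Cys, 310 in Bud, 293 in het, 102 in fetal and 278 in WT. The 9 enterocyte genes summed to 16.9, 1084, 6293, 0.682 and 3284 CPM in the same order, and 7 markers of fetal gut epithelium to 11196, 545, 164, 11622 and 131 CPM. Cys and fetal, the libraries with B2m lowest and Bst2 highest, were thus also those rich in fetal markers and poor in enterocyte genes. The part of these cell kinds in the differences of B2m and Bst2 was not tested.

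Whether the loss of Ifitm3 covered its neighbourhood was examined over the genes annotated within 500 kb on either side. Of 74 such genes, 39 were in the tables. In het 13 of 29 measured neighbours were called higher than in WT and 0 lower, beside 8.43% and 8.83% of all genes. In Bud 0 of 30 were called in either direction, beside 5.79% higher and 8.67% lower. In Cys 3 of 29 were higher and 11 lower, beside 17.6% and 22%, and in fetal 7 of 30 were higher and 9 lower, beside 29.4% and 22.3%. Over the other settings these counts ranged from 6 to 13 higher in het, from 2 to 4 higher and 7 to 17 lower in Cys, and from 5 to 9 higher and 4 to 13 lower in fetal, with the low end of each from a window of 250 kb, which holds fewer genes. In het and Bud, then, Ifitm3 was the sole measured gene of the window called lower. Other settings called up to 1 neighbour lower in het and up to 2 lower and 2 higher in Bud. Ifitm6, whose span ends 4.93 kb from Ifitm3, was too low to measure in both. Between Ifitm2 (at -53.6 kb) and B4galnt4 (at 50.3 kb) the sole neighbour measured was Ifitm1, with 9 UMIs in WT. Whether the loss covered that stretch could thus hardly be judged.

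Close to Ifitm3, Pkp3 (plakophilin 3, a desmosome protein) was at 60.4 CPM in Cys, 32.1 in Bud, 55.3 in het, 54.6 in fetal and 27.0 in WT. Rassf7 was at 107 CPM in Cys, 53.3 in Bud, 95.3 in het, 110.0 in fetal and 47.6 in WT. Both were called higher in Cys, het and fetal than in WT, and their Bud levels lay nearest WT. Sigirr, a receptor that dampens interleukin-1 signals, was 2.96-fold higher in fetal than in WT and was not called in the others.

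Nlrp6, a sensor of innate immunity in gut epithelium that lies at -80.4 kb from Ifitm3, had 8 UMIs in Cys, 850 in Bud, 1401 in het, 16 in fetal and 801 in WT. Its pattern was unlike that of Ifitm3: it was near 0 in Cys and fetal and abundant in Bud, het and WT. Ano9, a member of the anoctamin family, was at 26.5 CPM in Cys, 63.3 in Bud, 131 in het, 19.4 in fetal and 85.5 in WT, again low in Cys and fetal. Ptdss2, a phosphatidylserine synthase, B4galnt4, a glycosyltransferase, and Sirt3, a mitochondrial deacylase, were called lower in Cys and not in Bud or het, and B4galnt4 and Sirt3 were lower in fetal too. Bet1l, a vesicle fusion protein, was called higher in het and fetal, and Rnh1, the ribonuclease inhibitor, in het. Psmd13, a proteasome subunit, and Phrf1 were called in none of the 4 comparisons with WT, nor were Cyp2e1 and Lrrc56, both under 6 CPM throughout. Zfp941 stayed at 0.201 (Cys) to 2.14 (Bud) CPM.

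**Figure D3:**
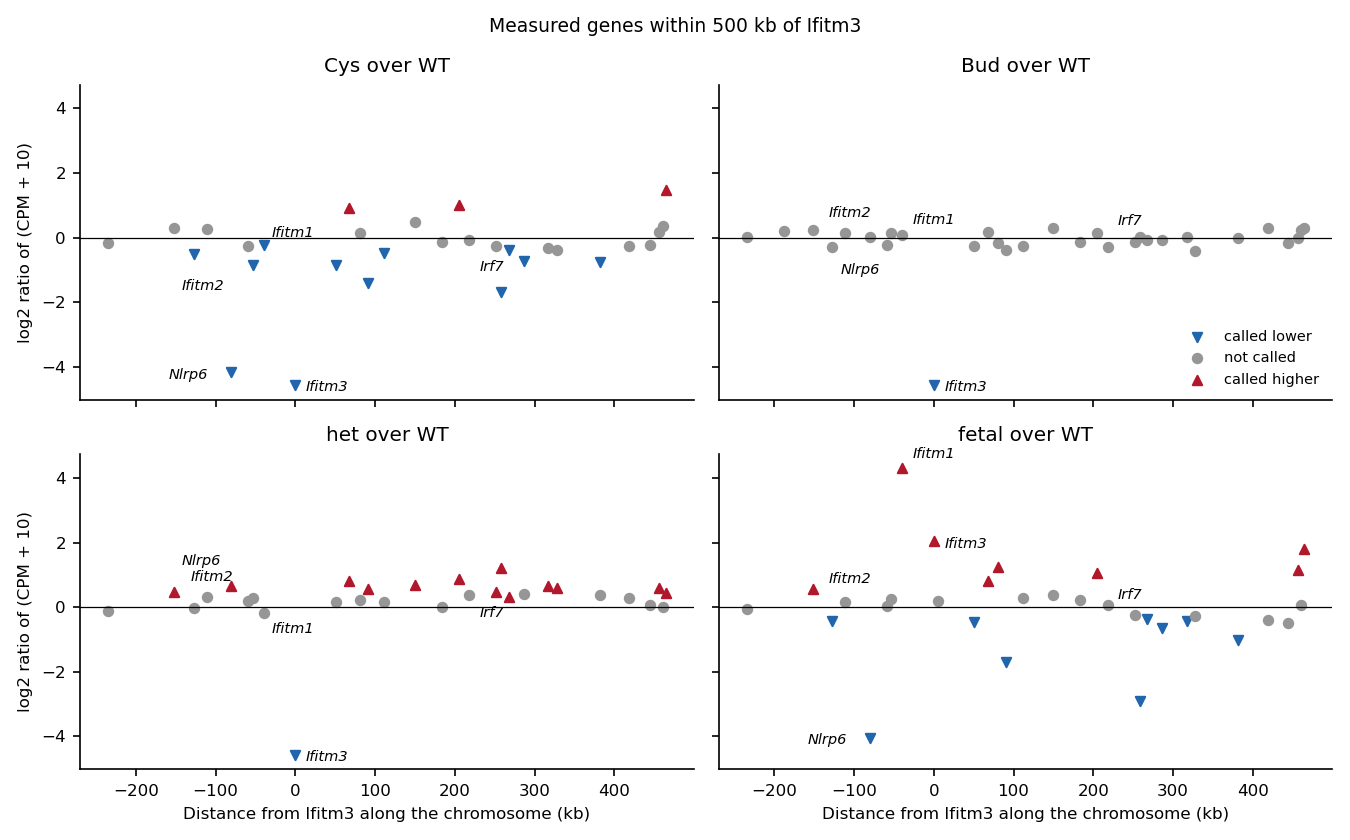
Log2 ratio of (CPM + 10) for measured genes within 500 kb of Ifitm3, by distance in kb, for each library over WT; triangles mark called genes. In Bud and het Ifitm3 is the sole gene called lower, at -4.56 and -4.57, while in Cys the neighbour Nlrp6 lies almost as low, at -4.17.

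The interferon pathway at large was described with lists chosen with earlier results of these data known. Of 10 interferon genes, 1 was in the tables, Ifnk, with a single UMI in het. Of 86 interferon-stimulated genes, 77 were in the tables and 44 (Bud) to 52 (fetal) were measured against WT. In Cys 11 of 45 were called higher and 10 lower, or 24.4% and 22.2%, beside 17.6% and 22% of all genes. In Bud 3 of 44 were higher and 1 lower, or 6.82% and 2.27%, beside 5.79% and 8.67%, but 9 were lower on reads and 10 with equal weight per well. In het 8 of 47 were higher and 3 lower, or 17.02% and 6.38%, beside 8.43% and 8.83%, with 5 to 13 higher over the other settings. In fetal 22 of 52 were higher and 9 lower, or 42.3% and 17.3%, beside 29.4% and 22.3%. The median log2 ratio was 0.02 in Cys, -0.10 in Bud, 0.07 in het and 0.11 in fetal, beside -0.06, -0.04, -0.02 and 0.06 over all measured genes. Some textbook reporters of an interferon response, picked after their values were seen, were scarce: Ifit3 had 1 UMI in all (in WT), Mx2 at most 2 UMIs and Rsad2 at most 10 UMIs a library.

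Within this list genes were named by size of ratio and level. Casp1, the inflammasome protease, was at 5.22 CPM in Cys, 110 in Bud, 173 in het, 0 in fetal and 111 in WT. It was 21.3-fold lower in Cys than in WT (14.3 to 32.9), and had no UMI in fetal against 448 UMIs in WT. Ifi27l2b was at 10.6 CPM in Cys, 129 in Bud, 262 in het, 2.73 in fetal and 144 in WT. Both were high in Bud, het and WT and low in Cys and fetal, unlike Ifitm3.

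Lgals9 (galectin 9) was 4.08-fold lower in Cys than in WT and Epsti1 24.4-fold lower. Shisa5 was 3.12-fold higher in fetal than in WT and Slfn8, of the schlafen family, 9.38-fold lower. Samhd1, which degrades the building blocks of DNA, was called lower in Bud than in WT, at 29.3 CPM in Bud and 62.2 CPM in WT. Eif2ak2 (PKR), a sensor of double-stranded RNA, was 1.64-fold higher in het than in WT and 1.63-fold higher in Bud than in WT. Cxcl10, named after its values were seen, had 70 UMIs in Bud against 2 in WT, but 57 of the 70 lay in 1 well.

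Genes of MHC class I antigen presentation were called in both directions in Cys and fetal. In Cys 6 of 22 measured genes were higher and 7 lower than in WT, or 27.3% and 31.8%, beside 17.6% and 22% of all genes. In Bud 0 of 20 were higher and 3 lower, or 0% and 15%, beside 5.79% and 8.67%. In het 0 of 23 were higher and 1 lower, or 0% and 4.35%, beside 8.43% and 8.83%. In fetal 7 of 24 were higher and 6 lower, or 29.2% and 25%, beside 29.4% and 22.3% of all genes. The median log2 ratio of this list was -0.10 in Cys, -0.02 in Bud, 0.11 in het and 0.14 in fetal. The heavy chain gene H2-D1 was at 325 CPM in Cys, 213 in Bud, 214 in het, 395 in fetal and 177 in WT, so it was higher than in WT in the 2 libraries where B2m was lowest, whereas H2-K1, another heavy chain gene, was at 435 CPM in Cys, 359 in Bud, 548 in het, 353 in fetal and 480 in WT and was called in none of these comparisons. The chaperones Calr (1.94-fold) and Pdia3 (2.27-fold) were higher in Cys than in WT, while the immunoproteasome subunit Psmb10 was 2.94-fold lower in Cys than in WT and 2.81-fold lower in fetal than in WT. Tapbp, which loads peptides, was 2.76-fold higher in fetal than in WT, and Erap1, which trims them, 2.05-fold lower. H2-Q1 was 11.4-fold lower in Cys than in WT and 1.88-fold lower in Bud than in WT. H2-Q10, singled out after its values were seen, had 0, 1, 0 and 4 UMIs in Cys, Bud, het and fetal and 69 UMIs in 48 wells of WT. The H2 genes are close paralogs, so their counts are uncertain.

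**Figure D4:**
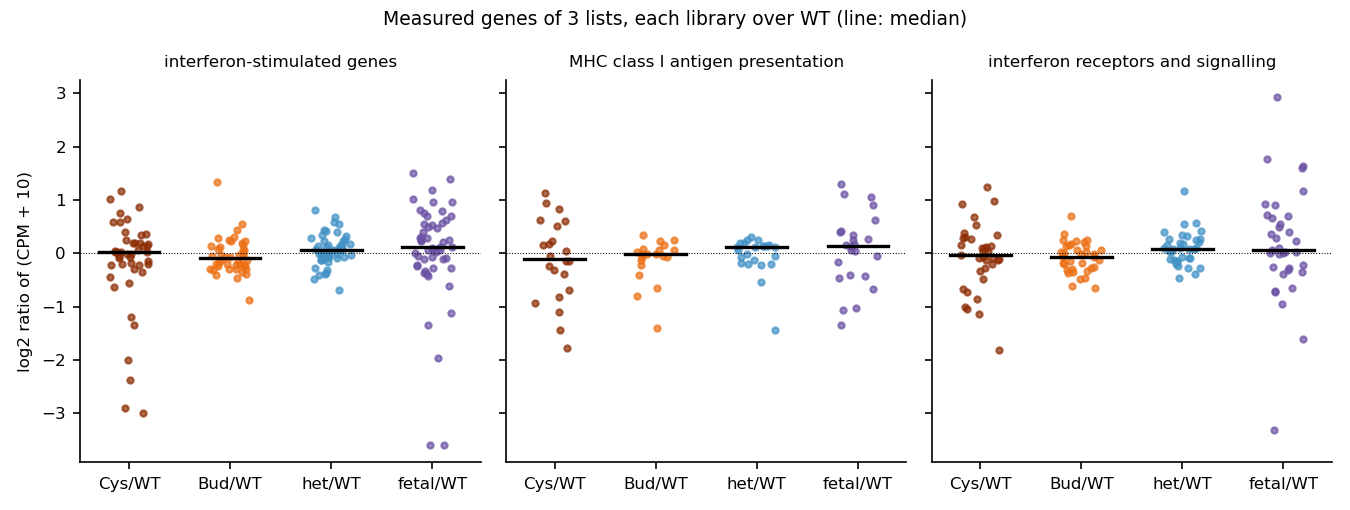
Log2 ratio of (CPM + 10) over WT for each measured gene of 3 lists, with a line at the median, by library. The medians lie within 0.15 of 0 in every case, and more genes lie far from 0 in Cys and fetal than in Bud and het.

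Of 36 genes of interferon receptors and signalling, 35 were measured against WT. In Cys 7 were higher and 8 lower, or 20% and 22.9%, beside 17.6% and 22% of all genes. In Bud 1 was higher and 4 lower, or 2.86% and 11.4%, beside 5.79% and 8.67%. In het 5 were higher and 1 lower, or 14.3% and 2.86%, beside 8.43% and 8.83%. In fetal 13 were higher and 6 lower, or 37.1% and 17.1%, beside 29.4% and 22.3% of all genes. The median log2 ratio of these genes was -0.04 in Cys, -0.07 in Bud, 0.09 in het and 0.06 in fetal. Tmem173 (STING), which relays the alarm of DNA in the cytosol, was at 0.602 CPM in Cys, 2.14 in Bud, 33.2 in het, 136 in fetal and 9.17 in WT. It was 14.8-fold higher in fetal than in WT, 3.62-fold higher in het than in WT and 15.5-fold lower in Bud than in het. Mb21d1 (cGAS), the sensor upstream of STING, was at 26.9 CPM in Cys, 29.8 in Bud, 27.1 in het, 6.82 in fetal and 41.4 in WT, with the het call lost under some settings. Tlr3, a receptor for double-stranded RNA, was 6.50-fold higher in fetal than in WT. Irf8, a transcription factor of the same family as Irf1 and Irf7, was at 21.5 CPM in Cys, 101 in Bud, 74.6 in het, 1.02 in fetal and 100.4 in WT.

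Both chains of the interferon gamma receptor were lower in Cys than in Bud, Ifngr1 by 2.27-fold and Ifngr2 by 2.13-fold. Ifnar1, a chain of the type I receptor, was 1.57-fold higher in het than in WT, and Ifnar2, its partner, 4.34-fold higher in fetal than in WT. Stat3 was 2.78-fold higher in Cys than in WT, Ptpn2, a phosphatase that dampens the pathway, was 2.35-fold lower, and Traf3 was 1.92-fold higher in Bud than in WT.

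Cells within a library differed in Ifitm3 as well. Wells were ranked by the summed CPM of 8 stem cell genes (Lgr5, Smoc2, Ascl2, Axin2, Olfm4, Cd44, Slc12a2 and Rgmb), and cut into 3 parts of equal size. The part with most stem gene UMIs (stem-rich) was compared with that with fewest (stem-poor). Each is a range of a score, not a cell type. In WT, Ifitm3 was at 365 CPM in stem-rich wells (334 to 398) and 56.7 CPM in stem-poor wells (43.2 to 73.2), a ratio of 6.43 (4.90 to 8.57). Thinned to 1000 UMIs, 32% of stem-rich and 8% of stem-poor wells held it. With Lgr5 alone as the score the ratio was 3.79, and without Cd44 and Slc12a2 it was 4.87. The median well held 14050 UMIs among stem-rich and 5884.5 among stem-poor wells.

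Ifitm2 followed the same score less steeply in WT, at 655 CPM in stem-rich and 407 CPM in stem-poor wells, a ratio of 1.61 (1.43 to 1.81). B2m did not follow it, with a ratio of 1.07 (0.963 to 1.19). Ranked by 9 enterocyte genes instead, the richest WT wells had Ifitm3 at 113 CPM, 0.370 times that of the poorest (0.302 to 0.451). In fetal wells ranked by stem genes, the ratio of levels was 1.66 for Ifitm3, 1.70 for Ifitm2 and 2.67 for Ifitm1. The Ifitm3 ratio was 1.88 with Lgr5 alone as the score and 2.44 without Cd44 and Slc12a2. Thinned to 1000 UMIs, Ifitm2 was in 42.3% of stem-rich (33.4 to 51.5) and 39.8% of stem-poor fetal wells (31.1 to 49.1). Ifitm3 was in 62.6% (53.4 to 71.2) and 48.8% (39.7 to 58.0), and Ifitm1 in 22.8% (15.7 to 31.2) and 9.76% (5.14 to 16.4). For each of these genes the intervals of stem-rich and stem-poor wells overlap. Fetal wells ranked by 9 cycling genes ran the other way, with Ifitm1 in the richest wells at 0.337 times and Ifitm3 at 0.643 times the level of the poorest.

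The stem-rich wells of Bud and het also had Ifitm3 near 0, in a comparison between libraries chosen after the data were seen. They had stem genes at levels close to that of WT, 3601 CPM in Bud and 3545 in het against 3643 in WT, and held 3 Ifitm3 UMIs in Bud and 1 in het against 505 in WT. Ifitm3 there was 178-fold lower in Bud than in WT (60.5 to 865) and 585-fold lower in het than in WT, with an interval of 105 to 23164 that rests on that 1 UMI. The same wells had Ifitm2 at 0.995 times the WT level in Bud (0.907 to 1.09) and 1.43 times in het (1.32 to 1.56). In Cys stem genes were scarcer (1415 CPM in stem-rich wells). Over the library most of their UMIs were of Cd44 and Slc12a2, a larger part than in WT. Ifitm3 was 248-fold lower in stem-rich wells of Cys than in those of WT. Within het, Ifitm2 was 2.96-fold higher in stem-rich than in stem-poor wells (2.65 to 3.30), a steeper slope than within WT, though the difference between the slopes was not tested.

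**Figure D5:**
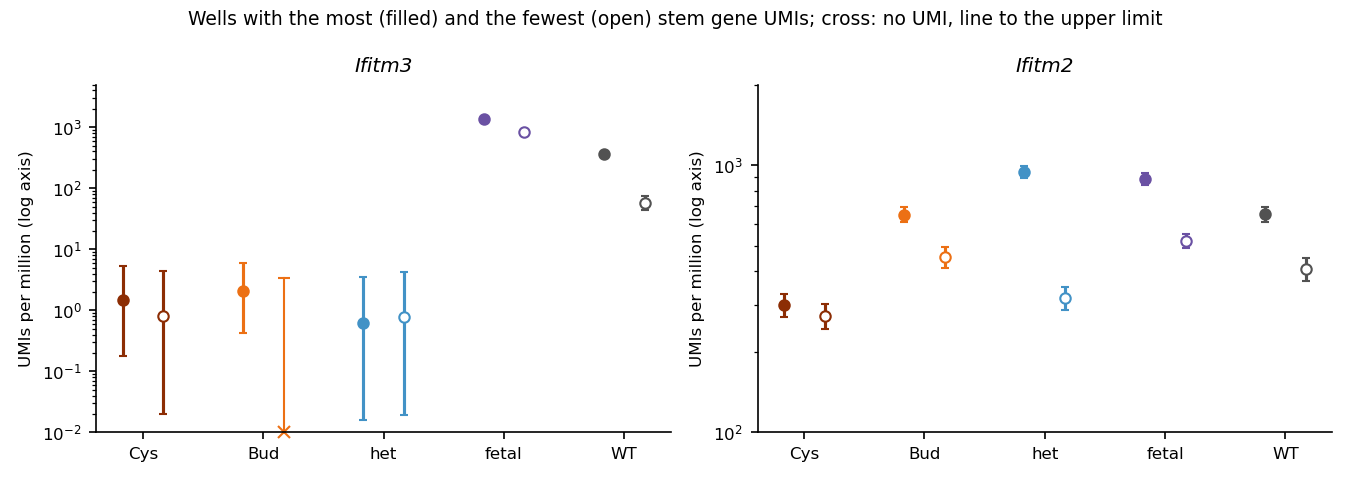
Ifitm3 and Ifitm2 in CPM (log axes) in the stem-rich (filled) and stem-poor (open) wells of each library, with exact Poisson 95% intervals; a cross marks wells with no UMI. Ifitm3 is higher in the stem-rich than in the stem-poor wells of WT and is at most 2.05 in either kind of well of Cys, Bud and het, while Ifitm2 is higher in the stem-rich wells of Bud, het, fetal and WT.

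Whether single wells held Ifitm3 together with its relatives was also counted. After thinning, 48.5% of fetal wells with Ifitm3 and 32.3% of those without it held Ifitm2. For Ifitm1 these were 23.04% and 8.38%, and for B2m 32.8% and 36.5%. In WT, 45.9% of wells with Ifitm3 and 39.8% of those without it held Ifitm2. These shares describe wells of 1 plate each.

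Genes with a profile over the 5 libraries most like that of each Ifitm gene were sought among 10807 genes, by the distance between centred log2(CPM + 10) values. This distance counts the size of the differences as well as their pattern, so it is not compared between Ifitm genes. By it no gene came close to Ifitm3. The nearest was Plod2, a collagen lysyl hydroxylase, at a distance of 3.36, with 0.402, 0, 5.23, 116 and 27.0 CPM in Cys, Bud, het, fetal and WT. Reg1, Gas6, Cstf2t and Fam213a followed at distances up to 3.98. For Ifitm2 the nearest were Nrarp at 0.13 and Hes1, a transcriptional repressor, at 0.13, then Doc2g, Dusp16 and Chst11 at up to 0.24. The nearest to Ifitm1 were Efemp1, Rdx, Lamb1, Xist and Cav1, at distances of 0.33 to 0.42. Each was abundant in fetal (153 to 256 CPM) and at most 1.61 CPM elsewhere, and Xist, the RNA of the inactive X chromosome, was at 256 CPM in fetal and at most 0.476 CPM in the other libraries.

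How many genes share the loss was asked with a rule chosen after the data were seen. Of 6914 genes with at least 20 CPM in WT, only Ifitm3 and Gas6 were at no more than 1 CPM in each of Cys, Bud and het. The WT minimum left out genes such as H2-Q10, at 17.1 CPM in WT and 0, 0.238 and 0 CPM in Cys, Bud and het. Unlike Ifitm3, H2-Q10 was also low in fetal, at 0.682 CPM. Gas6, a secreted ligand of TAM receptor kinases on chromosome 8, had 0, 1, 1 and 412 UMIs in Cys, Bud, het and fetal and 98 UMIs in WT, in 181 fetal and 65 WT wells. Like Ifitm3 it was higher in fetal than in WT.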

How the data were processed

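Single cells sorted into 384-well plates were profiled with UMIs, and each of the 5 groups was 1 library. The submitters' processing notes list STAR 2.6.1, featureCounts 1.5.2, Seurat 4.1.0 and GRCm38, with no settings. The authors deposited 3 tables a library: UMI counts (used for all values), read counts, and estimated counts, which equal the UMI counts corrected for saturation of 4096 codes to within 3.64e-12. No column of an unmapped sample was found.

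Wells with at least 1000 UMIs outside spike-ins were kept. UMIs were summed over wells and divided by the library total (CPM). Levels have exact Poisson, shares exact Clopper-Pearson and ratios exact conditional binomial 95% intervals, which cover counting error only, at the depths given above. With 1 library per group no test between groups is possible. Log2 ratios used CPM + 10. A gene was measured with at least 10 UMIs over both libraries and called at a ratio of 1.5 with an interval excluding 1. The rule was tested on simulated Poisson counts drawn around the WT sums, the same kind of counting error that the intervals cover. They held no spread between wells or plates, so such spread was not tested. The genes described, the lists and the rules were chosen with earlier results of these data known. Named genes were the 8, other Ifitm genes, Stk11, up to 4 called genes per list and comparison with the largest ratio at 20 CPM or more, measured genes within 250 kb, and the 5 nearest profiles. Positions are from GENCODE on GRCm38 and promoters from RefSeq, GRCm38.p6, in which all 8 matched. Python 3.11.15, scipy 1.17.1 and pandas 2.3.3 were used. The values of 1 listed gene are not reported here.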

Additional observations from a re-analysis of the deposited data

Results flagged for a closer look

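Wells under 1000 UMIs were left out of all comparisons, yet they held molecules of these genes above 3 UMIs a library, with no control wells to set them against. Ifitm3 had 11 UMIs in such wells of WT. Ifitm2 had 12 in Bud, 11 in het, 5 in fetal and 17 in WT. B2m had 11 in Bud, 10 in het, 5 in fetal and 20 in WT. Ifitm3 in these wells of Cys, Bud, het and fetal stayed at 1, 0, 0 and 2 UMIs.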

How the results depend on the processing

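No paired analysis was possible because each group is 1 library. Of 516 recomputed log2 ratios of the 8 genes, 10 lost and 12 gained a call, and no called ratio changed sign. Settings where a gene was not measured were left out. Some ratios without a call did change sign, such as that of B2m in Bud over het, at -0.178 as reported and up to 0.034. The ratios of Ifitm3 over WT stayed called under every setting. Of 144 recomputed counts of called genes, 16 moved by over 1.5 times. With wells of at least 3000 UMIs, 1 gene was lower in het over WT and 1 higher in Bud over het. With 50 UMIs per gene, 1 was higher in het over WT and 1 in Bud over het. On reads, 0 were higher in Cys over WT, 1 was lower in fetal over WT and 2 were lower in Bud over het. With median ratio scaling 1 was lower in het over WT. Without the 50 top genes in the total, 2 were lower in fetal over WT. With equal weight per well, 0 were higher in het over WT and 1 was lower in fetal over WT. Without each gene's top well, 1 was lower in fetal over WT and 1 higher in Bud over het. Without wells over 2% Kcnq1ot1, 1 was higher in het over WT, 1 lower in fetal over WT and 1 higher in Bud over het. The causes were not tested. Of 588 counts over lists and neighbours 54 moved, and of 80 shares of wells 57 moved with the thinning depth. The median of all genes shifted past 0.1 for Cys over WT alone, to -0.11 on reads and -0.12 without top wells. Genes under about 10 UMIs, such as Isg15, are limited by depth.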
